A study of Mus musculus with 2 samples.

Results

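Dopamine acts through 5 receptors, encoded in the mouse by Drd1, Drd2, Drd3, Drd4 and Drd5, and through a small set of signalling genes that follow them in spiny projection neurons. These 5 receptor genes and Gnal, Adcy5, Ppp1r1b, Pde1b and Pde10a, 10 of the 31053 genes measured, were taken by symbol and described in the mouse medial prefrontal cortex. The D1 class of receptors (Drd1 and Drd5) raises cyclic AMP and the D2 class (Drd2, Drd3 and Drd4) lowers it. In striatal neurons the D1 receptor couples through the olfactory-type G protein alpha subunit, encoded by Gnal, to adenylate cyclase 5, encoded by Adcy5. Cyclic AMP activates protein kinase A, which phosphorylates DARPP-32, the product of Ppp1r1b and an inhibitor of protein phosphatase 1, and the phosphodiesterases of Pde1b and Pde10a break cyclic nucleotides down again. In the cortex, D1 receptors are known from subsets of pyramidal neurons and D2 receptors from sparser sets of pyramidal neurons and interneurons, whereas the striatum holds the densest expression of this pathway.

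Nuclei came from male mice labelled as knockout (KO) for Npas2, a clock transcription factor, and from male wild-type (WT) littermates. Both were killed 20 h after lights on (zeitgeber time 20) in a cycle with 12 h of light, and neither label names an agent. Neither the age of the mice nor which allele or deletion makes the knockout is given in the sources used here. Tissue of 4 mice was pooled for each genotype into 1 single-nucleus library (10x Genomics 3' chemistry, which counts molecules near the 3' end of a transcript by a unique molecular identifier, UMI), so a pool is 1 sample and no difference below has a replicate check or a p-value.

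The library labelled KO held 7161 nuclei (56.2%) at an estimated 3273 UMIs per nucleus, and the library labelled WT held 5578 (43.8%) at 4037 UMIs. Each value is the average, over nuclei, of the molecules of a gene per 10000 molecules of the nucleus. At this depth 3 UMIs correspond to a mean of 0.00128 in the library labelled KO and 0.00133 in the library labelled WT. Parentheses hold 95% counting intervals from estimated UMI numbers, and they cover counting error only. Npas2 (chromosome 1, 39193731 to 39363236, plus strand, mm10) averaged 1.39 in the library labelled KO and 1.29 in the library labelled WT, a ratio of 1.08 (1.02 to 1.15). It was thus not lower in the library labelled KO. Reads near the 3' end say nothing of a deletion elsewhere in the gene, so the libraries are called by their labels, on which all directions given here depend.

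The libraries also differed in the nuclei they held. The authors' table has 23 numbered clusters that pool both libraries, and cluster 6, of 683 nuclei, raised 12 of 12 non-member markers of striatal spiny projection neurons, so it is striatal spiny projection-like. It took an estimated 1.45% of the nuclei of the library labelled KO and 10.4% of those of the library labelled WT. The clusters counted as non-neuronal were 8 (oligodendrocyte-like), 14 (with astrocyte and vascular markers), 18 (microglia-like) and 19 (oligodendrocyte precursor-like). These names are not exclusive. Cluster 19 also raised 6 of 6 oligodendrocyte markers, and cluster 14 raised 5 of 6 of these and 5 of 5 precursor markers. The small clusters 21 (37 nuclei) and 22 (20 nuclei) also raised 6 of 6 oligodendrocyte markers but were left out of this group. Cluster 21 raised 6 of 10 excitatory markers as well, and cluster 22 raised 5 of 6 microglia markers. Together clusters 8, 14, 18 and 19 took 4.64% of the library labelled KO and 14.2% of the library labelled WT. The inhibitory-like clusters 4 and 10, which raised 7 and 8 of 10 markers of olfactory bulb cells or neuroblasts, and cluster 17, which raised 5 of them, together took 17.2% in the library labelled KO and 7.10% in the library labelled WT. The summed mean of the 12 striatal markers was 15.8 in the library labelled KO and 18.2 in the library labelled WT, and 7 of the 9 above the floor used below were lower in the library labelled KO. The median log2 ratio of those 9, KO over WT by label, was -1.73. Abundant markers weigh most in the sum. The 6 oligodendrocyte markers summed to 2.35 in the library labelled KO and 7.30 in the library labelled WT. The 10 bulb or neuroblast markers summed to 5.25 in the library labelled KO and 2.08 in the library labelled WT. No marker of any list was at 0 in either library. A library's mean cannot tell fewer nuclei of a type from less RNA per nucleus.

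The stretches around the starts of 3 receptor genes are shown because Drd1, Drd2 and Drd3 had their highest mean in cluster 6 and lower means in the library labelled KO, yet have starts of different base composition. Sequences are from RefSeq (GRCm38.p6), 250 bases before to 50 after an annotated start, on the gene's strand, with capitals marking GC boxes (GGGCGG or its reverse complement CCGCCC), the motif bound by Sp1-type factors.
Drd1, chr13:54055609-54055908 (minus strand): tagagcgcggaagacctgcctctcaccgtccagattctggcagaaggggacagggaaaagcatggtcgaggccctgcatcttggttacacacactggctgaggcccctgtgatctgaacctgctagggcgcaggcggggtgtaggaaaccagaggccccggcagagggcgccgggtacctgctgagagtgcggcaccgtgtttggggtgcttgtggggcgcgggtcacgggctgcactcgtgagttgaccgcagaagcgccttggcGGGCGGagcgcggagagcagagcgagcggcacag
Drd2, chr9:49340153-49340452 (plus strand): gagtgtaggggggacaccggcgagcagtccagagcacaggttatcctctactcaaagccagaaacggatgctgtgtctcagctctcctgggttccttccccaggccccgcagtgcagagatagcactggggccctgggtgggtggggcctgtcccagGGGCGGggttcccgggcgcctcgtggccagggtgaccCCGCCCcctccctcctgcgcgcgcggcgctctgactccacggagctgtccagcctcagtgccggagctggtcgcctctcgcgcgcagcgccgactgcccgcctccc
Drd3, chr16:43761971-43762270 (plus strand): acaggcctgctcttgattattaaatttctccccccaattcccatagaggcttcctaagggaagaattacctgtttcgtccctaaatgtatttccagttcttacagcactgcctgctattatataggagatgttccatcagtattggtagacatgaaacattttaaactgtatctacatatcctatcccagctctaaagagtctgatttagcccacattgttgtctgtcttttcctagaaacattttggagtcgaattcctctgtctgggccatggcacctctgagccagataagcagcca
The Drd1 window shown was 65.7% G or C with 1 GC box and the Drd2 window 70.3% with 2. A second Drd1 start has a window of 59.3%, also with 1 GC box. The Drd3 window held 42.0% and no GC box, below the median of 52.7% over all 32851 windows. The RefSeq starts used here differ from the GENCODE starts for most members with a window, Drd1, Drd2 and Drd3 among them. The Pde10a windows, the first from 8801495, lie far inside the gene, whose GENCODE start is 8525372. A window was found for 8 of the 10 members, 12 windows in all. GC boxes stood in 9 of the 12, against 35.7% of all windows. The E-box CACGTG, the motif that NPAS2 and its partner bind, stood in 0 of the 12, against 7.15% of all windows. The cyclic AMP response element TGACGTCA stood in 0 of 12 (1.79% of all windows) and TATAAA or its reverse complement in 1, that of Pde1b (13.6%). Motifs were searched on both strands, none of them contains another, and a match describes letters, not a bound site.

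Between the libraries, most members had lower means in the library labelled KO. Of the 10 members, 7 passed a floor on the mean of both libraries (0.0461, the median of all genes above 0), and Drd3, Drd4 and Drd5 did not. On the log2 scale with a pseudocount of 0.01, 6 of the 7 were below 0, against 59.2% of the 12003 genes above the floor. At least 2-fold lower were 3 of the 7 (Drd2, Ppp1r1b and Adcy5), against 2.37% of all genes, and 0 were at least 2-fold higher, against 0.567%. Drd2 (0.0240) and Ppp1r1b (0.0445) lay below 0.0461 in the library labelled KO, so they passed the floor only through the library labelled WT. Their call as lower is thus not independent of the floor, which was set in the same way for all genes. The median log2 ratio of the 7 was -0.98, and that of all genes -0.06. With no floor, 4 of the 10 members were at least 2-fold lower, Drd3 being the fourth, against 2.16% of the 24005 genes above 0.

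Drd2 (chromosome 9, 49340627 to 49408177, plus strand), the main D2-class receptor, averaged 0.0240 in the library labelled KO and 0.182 in the library labelled WT, 7.58-fold lower (5.49 to 10.7). About 56.2 UMIs stood behind the value of the library labelled KO and about 409 behind that of the library labelled WT. Drd1 (chromosome 13, 54051183 to 54055705, minus strand), the main D1-class receptor, had 0.108 in the library labelled KO and 0.222 in the library labelled WT, 2.06-fold lower (1.72 to 2.47). Its log2 ratio with the pseudocount was -0.98, just short of the 2-fold line. The ratio of Drd2 thus lay further from 1 than that of Drd1, with intervals that do not overlap.

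The 3 receptors below the floor rest on few molecules. Drd3 (chromosome 16, 43754026 to 43822932, plus strand), a D2-class receptor known from the ventral striatum, had 0.00622 in the library labelled KO (about 14.6 UMIs) and 0.0686 in the library labelled WT (about 154 UMIs), a ratio of 0.0908 (0.0442 to 0.168). Drd4 (chromosome 7, 141292006 to 141296464, plus strand), also of the D2 class, gave exactly 1 UMI in the library labelled KO (0.000211) and about 15.6 in the library labelled WT (0.00692), a ratio of 0.0304 (0.000706 to 0.211). Drd5 (chromosome 5, 38319367 to 38322518, plus strand), the second D1-class receptor, had 0.00449 (about 10.5 UMIs) in the library labelled KO and 0.00636 (about 14.3 UMIs) in the library labelled WT. Its ratio of 0.706 had an interval of 0.242 to 1.996, so a difference was not detectable at this depth. An antisense gene overlaps Drd5 and a miRNA gene lies within Drd3, and how the counting treated overlaps and strand is not given in the sources used here.

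Among the genes that carry the signal onward, Adcy5 (chromosome 16, 35154877 to 35305738, plus strand) had 0.246 in the library labelled KO and 0.571 in the library labelled WT, 2.32-fold lower (2.07 to 2.61). Gnal (chromosome 18, 67088216 to 67226792, plus strand; 6 annotated genes overlap it, Chmp1b and Mppe1 among them) had 1.01 in the library labelled KO and 1.71 in the library labelled WT, a ratio of 0.592 (0.558 to 0.629). Ppp1r1b (chromosome 11, 98348404 to 98357796, plus strand; a processed transcript overlaps it on the other strand) had 0.0445 in the library labelled KO and 0.164 in the library labelled WT, 3.67-fold lower (2.85 to 4.79). All 3 intervals lay below a ratio of 1.

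The phosphodiesterase genes went different ways. Pde1b (chromosome 15, 103503034 to 103530052, plus strand), whose enzyme is activated by calcium and calmodulin, had 0.227 in the library labelled KO and 0.381 in the library labelled WT, a ratio of 0.594 (0.522 to 0.675). Pde10a (chromosome 17, 8525372 to 8986648, plus strand), whose enzyme is abundant in spiny projection neurons, had 8.34 in the library labelled KO and 7.17 in the library labelled WT, a ratio of 1.16 (1.14 to 1.19). It was the 1 member above the floor that was higher in the library labelled KO.

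**Figure D1:**
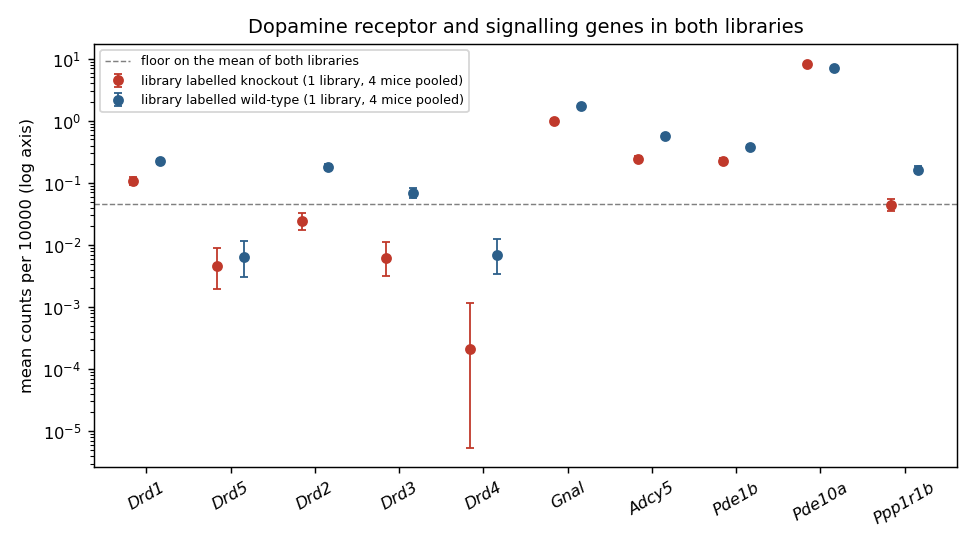
Mean counts per 10000 of each member (log axis) in the library labelled KO and in the library labelled WT, 1 library each, with 95% counting intervals. Pde10a is the 1 member whose point for the library labelled KO lies above that for the library labelled WT (8.34 and 7.17).

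Over the clusters, the members shared 1 feature: 8 of the 10 had their highest mean in cluster 6, against 3.55% of all genes above 0. All 7 members above the floor were among them, against 3.17% of genes above the floor, and Drd4 and Drd5 were the exceptions. Cluster 6 held 5.36% of nuclei and a median of 37.3% of the signal of the 7 members above the floor, against 4.95% over all genes above the floor. The authors' clusters were made from these nuclei, so a cluster's means are given as a description, with no test. Clusters pool both libraries.

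The receptors were spread in different ways. Drd2 had a mean of 1.38 (1.22 to 1.55) in cluster 6, which held 79.3% of its signal, and 0.0204 over the nuclei outside it, a fold of 67.4. The next cluster was 11 (inhibitory-like) at 0.184 (0.113 to 0.283), and 13, 7 and 10 followed at 0.0585, 0.0581 and 0.0504 with intervals that overlap each other. Drd2 was listed at 0 in 7 clusters. It was the member most gathered in cluster 6 by share of signal.

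Drd1 reached 0.996 (0.864 to 1.14) in cluster 6, but only 33.9% of its signal lay there. Cluster 16 (excitatory-like) followed at 0.510 (0.372 to 0.684), then the excitatory-like clusters 15 at 0.281, 20 at 0.278, 7 at 0.271 (0.202 to 0.356) and 2 at 0.204 (0.160 to 0.258). Clusters 2 and 16, both with Hs3st4 among their leading genes, held 18.2% of the Drd1 signal. The excitatory-like or unnamed clusters 0, 3, 1 and 5 stood lower at 0.0685, 0.0506, 0.0254 and 0.00622. Drd1 thus differed between excitatory-like clusters beyond counting error, as between clusters 16 and 0 (at most 0.0915 in cluster 0). The oligodendrocyte-like cluster 8, a type not known for this receptor, had 0.172 (0.0855 to 0.310), which overlaps the intervals of clusters 2 and 7. A mean of that height was therefore not told apart from the level of a cluster in which Drd1 is not known.

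Drd3 had 2 separate places. Cluster 6 held 46.1% of its signal at a mean of 0.288 (0.219 to 0.373), and cluster 4, inhibitory-like and led by Adamts19, Cpa6 and Dnah11, held 33.4% at 0.144 (0.0938 to 0.210). Cluster 11 had 0.0853 (0.0398 to 0.160), and 12 clusters were listed at 0. Cluster 11 was thus the cluster after cluster 6 for Drd2 and the one after clusters 6 and 4 for Drd3. Of the 12 striatal markers, clusters 4 and 11 each raised 4, and cluster 14 raised 7.

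Drd4 and Drd5 did not follow cluster 6. Drd4 was listed in 6 clusters, with 47.2% of its signal in the oligodendrocyte-like cluster 8 at a mean of 0.0400 (0.00670 to 0.128). Its cluster sums could be divided exactly between the libraries: the signal of clusters 1, 6, 8, 10 and 12 came from the library labelled WT, and the single UMI of cluster 9, in a nucleus of 6624 UMIs, from the library labelled KO. Drd5 was listed in 11 clusters, highest in the inhibitory-like cluster 9 at 0.0137 (0.00121 to 0.0551) and in cluster 0 at 0.0128 (0.00566 to 0.0247), which held 34.8% of its signal. Cluster 6 held 8.28%, and the intervals of these clusters overlap, so no order can be read from them.

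**Figure D2:**
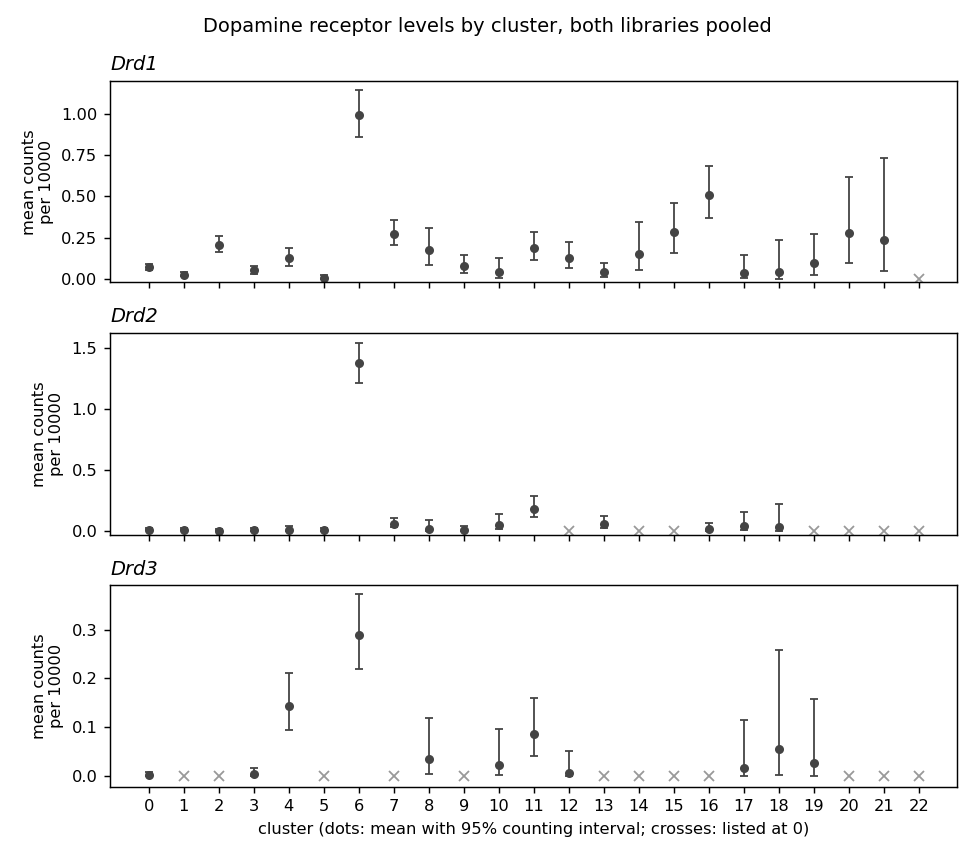
Mean counts per 10000 of Drd1, Drd2 and Drd3 in each of the 23 clusters, both libraries pooled, with dots for means, bars for 95% counting intervals and crosses for clusters listed at 0. Drd2 stands at 1.38 in cluster 6 and no higher than 0.184 in another cluster, whereas Drd1 also reaches 0.510 in cluster 16 and Drd3 0.144 in cluster 4.

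The signalling genes reached further outside cluster 6 than Drd2. Ppp1r1b had 0.886 (0.761 to 1.03) in cluster 6 and 49.1% of its signal there. Its next values were 0.319 (0.00929 to 1.72) in cluster 22, which is 1 UMI among 20 nuclei, and 0.238 (0.105 to 0.462) in cluster 14. Cluster 22 raised 6 of 6 oligodendrocyte and 5 of 6 microglia markers. Adcy5 had 3.20 (2.96 to 3.46) in cluster 6 with 44.2% of its signal, and between 0.131 and 0.398 in the other clusters. It was above 0 in all 23 clusters.

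Gnal had 7.82 (7.44 to 8.22) in cluster 6 with 31.9% of its signal, followed by 1.70 in cluster 16, 1.65 in cluster 3 and 1.59 in cluster 11, whose intervals overlap. Pde1b had 2.05 (1.85 to 2.25) there with 37.3%, and 0.381 (0.263 to 0.535) in cluster 16. Pde10a had 25.2 in cluster 6 but only 17.3% of its signal, since clusters 0, 5 and 12 also stood at 9.58, 9.23 and 8.97. The mean in cluster 6 over that outside it was 3.69-fold for Pde10a, against 8.27-fold for Gnal, 10.5-fold for Pde1b, 13.97-fold for Adcy5 and 17.03-fold for Ppp1r1b. Pde10a was thus the most evenly spread of the 7 members above the floor, by share and by fold.

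**Figure D3:**
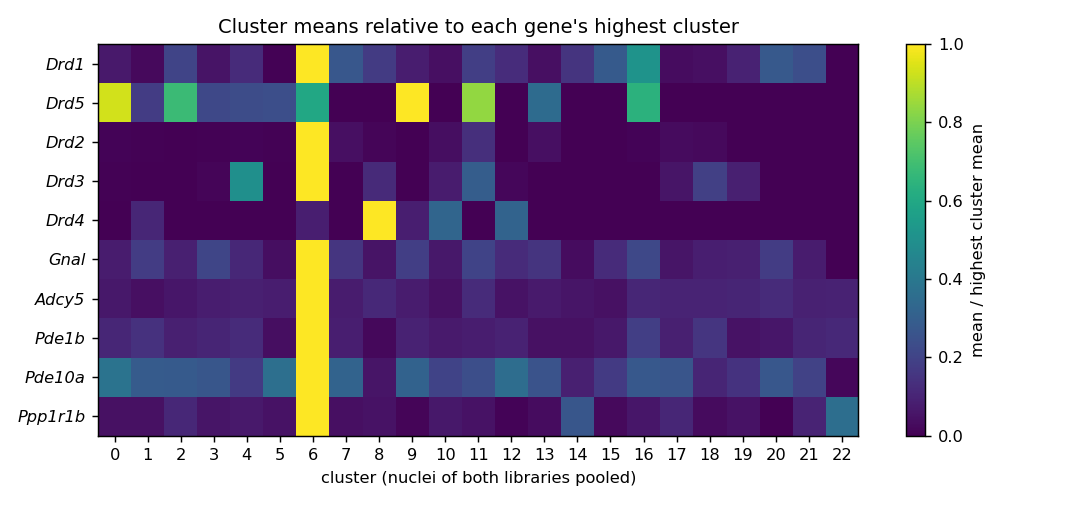
Mean of each member in each of the 23 clusters, both libraries pooled, divided by that member's highest cluster mean (colour, 0 to 1). The column of cluster 6 is at its highest for 8 of the 10 members, and the exceptions are Drd4, highest in cluster 8, and Drd5, highest in cluster 9.

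Across the 23 clusters, few members tracked each other once cluster 6 was left out. On log2 values, Gnal and Pde10a had a Pearson correlation of 0.83 over 23 clusters and 0.79 over 22 without cluster 6. Drd1 and Gnal had 0.67 with cluster 6 and 0.59 without it, Drd2 and Drd3 0.69 and 0.47, and Adcy5 and Drd2 0.69 and 0.20. Gnal and Ppp1r1b had -0.22 with cluster 6 and -0.67 without it. Clusters share libraries and differ in depth, so these are descriptions. Cluster 22, of only 20 nuclei, counted as much as any other cluster. There Gnal and Drd1 were listed at 0, Pde10a was at its lowest (0.433) and Ppp1r1b rested on 1 UMI. On the log2 scale such a point can carry much of the correlations with Gnal, and they were not computed without it. The genes most like a member were Ngef, Gsg1l, Olfm3 and Kcna4 for Drd1 (0.67 to 0.70), and Mhrt, Sh3rf2, Doc2b and Cpne5 for Drd2 (0.63 to 0.83). For Ppp1r1b they were Atl2, S100pbp, Sil1 and Ramp1 (0.69 to 0.76), for Pde10a Rgs7bp, Cxadr, Fgf14 and Klhl29 (0.90 to 0.94), and for Drd5, from few UMIs, Myo5b, Nxpe4, Clec16a and Ccdc148 (0.62 to 0.64). Of these 20 genes, 5 were still among the nearest 4 of their member without cluster 6.

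Outside cluster 6, the estimated ratios of 5 of the 7 members above the floor lay nearer 1 than over all nuclei, that of Pde10a lay further from it, and that of Drd2 could not be fixed. The table gives no cluster means per library, but each library's total and the cluster sums bound what each library can hold outside cluster 6, here per nucleus of the whole library. For Ppp1r1b the library labelled KO could hold at most 0.0445 and the library labelled WT at least 0.0552 (0.112 at most), so the ranges do not overlap however cluster 6 is divided. At that closest point the ratio was 0.806 with a counting interval of 0.587 to 1.11, which includes 1. For Drd3 the bounds were at most 0.00622 in the library labelled KO and at least 0.0333 in the library labelled WT, a ratio of 0.187 (0.0885 to 0.362) at the closest point, which does not reach 1. Drd4 and Drd5 had ranges that do not overlap, at counts too low to place Drd5 (0.277 to 2.52). For the other 6 members the ranges overlap.

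**Figure D4:**
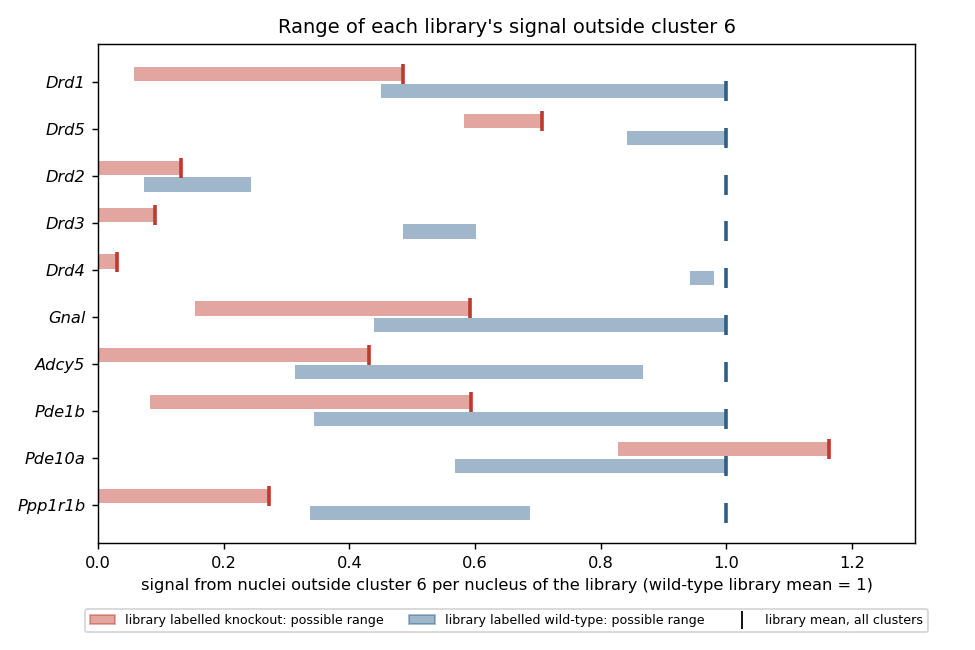
Possible range of each library's signal from nuclei outside cluster 6 (bars), per nucleus of the whole library and relative to the mean of the library labelled WT, with ticks at each library's mean over all clusters. The bars of the libraries labelled KO and WT are apart for Drd3, Drd4, Drd5 and Ppp1r1b and overlap for the other 6 members.

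With cluster 6 divided by the estimated nuclei of each library, which assumes equal means in its nuclei of both libraries, 2 of the 7 members above the floor stayed at least 2-fold lower (Drd2 and Ppp1r1b), against 2.61% of 12000 genes. Both passed the floor only through the library labelled WT. None of the 7 was at least 2-fold higher (0.667% of genes), 5 were below 0 (59.7% of genes), and the median log2 ratio was -0.38 against -0.07 over all genes. Per nucleus outside cluster 6, Ppp1r1b had 0.0322 in the library labelled KO and 0.0800 in the library labelled WT, a ratio of 0.402 (0.287 to 0.558). Drd1 had 0.0946 in the library labelled KO and 0.132 in the library labelled WT, a ratio of 0.716 (0.577 to 0.888). Adcy5 stood at 0.759 (0.654 to 0.880) and Gnal at 0.913 (0.849 to 0.982). All intervals given outside cluster 6 treat what is left after subtracting cluster 6 as if counted. They leave out the error of the subtraction and of the estimated nuclei, so they are too narrow. Over the interval of nuclei alone, the ratio ran from 0.338 to 0.463 for Ppp1r1b and from 0.663 to 0.765 for Drd1. It ran from 0.670 to 0.845 for Adcy5 and from 0.850 to 0.971 for Gnal. Over all nuclei these 4 ratios were 0.272, 0.485, 0.430 and 0.592.

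Pde1b had a ratio of 1.06 (0.899 to 1.25) outside cluster 6, an interval that includes 1, where the ratio over all nuclei was 0.594. Pde10a had 8.09 in the library labelled KO and 5.07 in the library labelled WT, a ratio of 1.60 (1.55 to 1.64), against 1.16 over all nuclei. For Drd2 the estimate was 0.00408 in the library labelled KO and 0.0434 in the library labelled WT, but it turned negative at 1 end of the interval of nuclei, so its size cannot be fixed. If all signal and nuclei of cluster 6 lay in the library labelled WT, the log2 ratio outside it would be 0.43 for Drd2, 0.24 for Gnal and 0.26 for Adcy5, against -1.92, -0.13 and -0.38 with the estimated nuclei. The directions of these 3 genes outside cluster 6 thus rest on how it is divided. Drd1 would lie near 0 at -0.07, and its possible ranges in the libraries also overlap, so its direction is not fixed either. The non-neuronal clusters and clusters 4, 10 and 17 also differed between the libraries as given above, and their part in these ratios was not tested.

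In cluster 4, Drd3 was unevenly held by the libraries. An estimated 81.3% of the 993 nuclei of cluster 4 belonged to the library labelled KO. The summed Drd3 signal of cluster 4 was 142.6, whereas the whole library labelled KO held only 44.6 over all its nuclei. At least 68.7% of the Drd3 signal of cluster 4 thus came from the library labelled WT. With the estimated nuclei, the mean of Drd3 in cluster 4 was at most 0.0552 in the library labelled KO and at least 0.528 in the library labelled WT (at least 23.1 UMIs), at least 9.56-fold apart, and 7.41-fold to 12.5-fold over the interval of nuclei. With the nuclei of cluster 4 divided as all nuclei are, the fold was at least 2.82. Of 9111 genes with a summed signal of at least 100 in cluster 4, 3 had over 50% of it bound to the library labelled WT, Drd3, 1 gene without an assigned name, and Isl1, a LIM homeodomain transcription factor that is also 1 of the 12 striatal markers. Isl1 had 0.00265 in the library labelled KO and 0.0633 in the library labelled WT, with 27.7% of its signal in cluster 4, of which at least 81.6% came from the library labelled WT. The bound can pass 50% only where a gene's total in the library labelled KO is below 50% of its cluster 4 signal. Genes with much signal elsewhere in that library cannot reach it, however cluster 4 is divided, so 3 of 9111 is not a background share. This screen and Isl1 were chosen after the values were seen.

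The wider pathway did not share the members' shift as a whole. Of 66 other genes of dopamine and cyclic AMP signalling in the table, 64 passed the floor, 36 were below 0 and 28 above, and their median log2 ratio was -0.07, against -0.06 over all genes. Relative to the library labelled WT, 3 of the 64 were at least 2-fold lower, against 2.37% of all genes, and 0 were at least 2-fold higher. Rgs9, which speeds the switching off of G protein signals, had 0.239 in the library labelled KO and 0.816 in the library labelled WT, 3.41-fold lower (3.05 to 3.81). Gng7, a G protein gamma subunit that pairs with the Gnal product in the striatum, had 0.159 in the library labelled KO and 0.435 in the library labelled WT, 2.74-fold lower (2.38 to 3.16). Rgs9 and Gng7 had their highest mean in cluster 6, as did 10 of the 64 genes in all, against 3.17% of all genes above the floor. Rgs9 is also 1 of the 12 markers by which cluster 6 was named.

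Outside cluster 6 the estimated log2 ratios of Rgs9 and Gng7 were -0.68 and -0.63, against -1.73 and -1.40 over all nuclei. Below the floor, the adenosine receptor gene Adora2a, a partner of the D2 receptor in striatal neurons, had 0.00720 in the library labelled KO and 0.0795 in the library labelled WT, a ratio of 0.0905 (0.0468 to 0.161). Gpr6, another receptor of D2-class neurons, had 0.0134 in the library labelled KO and 0.0655 in the library labelled WT, a ratio of 0.204 (0.125 to 0.321). Adora2a and Gpr6 are also among the markers by which cluster 6 was named, and it held 58.5% and 38.4% of their signal. The next largest differences above the floor were all lower in the library labelled KO: Rgs2 (log2 ratio -0.93), Pde7b (-0.90), Rgs4 (-0.85), Gnai2 (-0.78) and Pde8b (-0.76). Pde7b, a cyclic AMP phosphodiesterase with 37.7% of its signal in cluster 6, had 1.22 in the library labelled KO and 2.29 in the library labelled WT, and its estimated log2 ratio outside cluster 6 was -0.15.

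By class, set against 59.2% of all genes below 0, protein kinase A subunits and regulators were below 0 in 6 of 7 (median -0.20), other G protein subunits in 7 of 10 (median -0.29), and phosphatases and their regulators in 7 of 11 (median -0.21). Adenylate cyclases other than Adcy5 were below 0 in 2 of 6 (median 0.32), with Adcy8 at 1.42 in the library labelled KO and 0.939 in the library labelled WT. Phosphodiesterases other than the members were below 0 in 5 of 9 (median -0.02), channels and downstream genes in 2 of 8 (median 0.06). Receptor regulation genes, with Rgs9, Rgs2 and Rgs4 among them, were below 0 in 6 of 12 (median 7.09e-05). Pde4a had 1.48 in the library labelled KO and 0.928 in the library labelled WT, and the potassium channel gene Kcnj6 had 1.88 in the library labelled KO and 1.19 in the library labelled WT. Adcy8, Pde4a and Kcnj6 were named after their values were seen, as the largest increases. None of the 3 reached 2-fold.

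**Figure D5:**
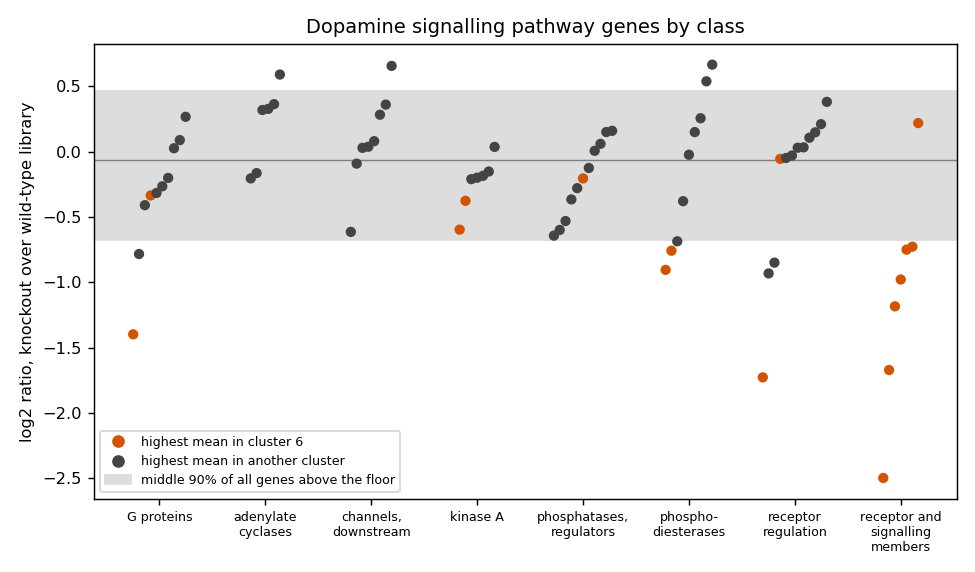
Log2 ratio (pseudocount 0.01) of the library labelled KO over the library labelled WT for the pathway genes above the floor, by class, with the 7 members at the right and 1 pathway gene not shown. Orange points have their highest mean in cluster 6, the band holds the middle 90% of all genes (-0.68 to 0.46), and Drd2 at -2.50, Rgs9 at -1.73 and Ppp1r1b at -1.67 lie furthest below it among the genes shown.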

How the data were processed

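Single nuclei of the medial prefrontal cortex were profiled as 1 library for each genotype, made from the pooled tissue of 4 mice per the labels, and the genome build was mm10 per the submitters' processing notes. The sources used here do not name the aligner, the counting, the clustering tool or the filters on nuclei and doublets. For both genotypes and 23 clusters the authors deposited a linear signal, the average normalized expression per gene; each column summed to 10000.

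From these means the numbers of nuclei were solved as whole numbers (within 6.1e-08). In genes listed in few clusters, single UMIs could be assigned to a library (4164 of 7766 genes searched, 9417 values within 0.0001 of a whole number), which gave depth and each cluster's nuclei per library, with 95% Clopper-Pearson intervals. This was tested on simulated data: the errors of clusters 4 and 6 lay within the width of their intervals. Those of some other clusters were larger, up to 13.3 percentage points in clusters of 100 or more nuclei. The intervals of nuclei can thus be too narrow. Both simulated libraries had the same cluster means except for 200 genes, and similar depths (4050 UMIs for KO and 3916 for WT). Libraries that differ more widely within a cluster, or in depth as here, were not tested. Counting intervals on estimated UMI numbers stand in for the count-based intervals first planned, because the table holds no counts. Ratios are without a pseudocount; log2 ratios use 0.01, which understates the change of low genes.

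A single library for each genotype allows no test. Genes above a floor of 0.0461 were counted at 2-fold. A marker was raised where its mean reached 0.05 and 2 times that of the median cluster, and 3 raised markers were needed for a name. Named were all members, Npas2, the 4 genes nearest to each of 5 members by Pearson correlation, and pathway genes at least 2-fold apart plus the 8 largest differences; exceptions are marked as named after their values were seen. A gene that the rule takes is counted but not reported here. The members and lists were chosen with earlier results of these data known. Positions are from GENCODE M21, promoter windows from RefSeq. Alternatives covered the pseudocount, floor, fold, scaling, likeness measure and, added after seeing the data, 2 ways of leaving out cluster 6. Python 3.11.15, numpy 2.4.6, pandas 2.3.3, scipy 1.17.1 and matplotlib 3.10.9 were used.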

Additional observations from a re-analysis of the deposited data

How the results depend on the processing

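No paired analysis was possible because each genotype has 1 library. The 3 members at least 2-fold lower became 1 with a pseudocount of 0.1, 0 with 1, and 6 at a fold of 1.5. The median log2 ratio of the 7 members above the floor, -0.98, became -0.70 with 0.1 and -0.17 with 1. With no floor the median of all 10 members was -0.86. The pseudocount of 0.001 and scaling to the median ratio (a shift of -0.06) left these counts within 1.5 times. Outside cluster 6, the median was -0.38 with its signal divided by estimated nuclei. With all of that signal in the library labelled WT, 0 members were at least 2-fold lower, 2 were below 0, the median was 0.26, and 4 members changed sign: Drd2 (log2 ratio 0.43) and Adcy5 (0.26), both at least 2-fold lower over all nuclei, Gnal (0.24) and Pde1b (0.57). The 3 pathway genes at least 2-fold lower became 0 with a pseudocount of 1, 5 with no floor, 13 at a fold of 1.5, and 1 outside cluster 6 by either division; those at least 2-fold higher became 3 at 1.5 and 1 with all signal of cluster 6 in the library labelled WT. Of the 20 nearest genes, 6 were shared with Spearman's measure and 5 without cluster 6. A larger pseudocount pulls low genes towards 0 by construction; the cause of the other changes was not tested. Depth limits Drd4 and Drd5, and no setting replaces the missing replicates.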
